A study of Mus musculus with 24 samples.

Results

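Ribosome-bound RNA of spinal cord microglia from wildtype mice with experimental autoimmune encephalomyelitis (EAE) was described in 12 RNA-seq libraries. They were chosen as every wildtype column of the deposited count table, 12 of 24 libraries in all; the remaining 12 came from Kdm6a cKO mice and were not used. The libraries fell into 6 from female wildtype and 6 from male wildtype mice, and the sexes were not compared: sex entered only as a nuisance term. Every animal had EAE, so no value here sets diseased against healthy microglia. The series' design text names Tmem119-Cre and RiboTag for the mice, and the ribosome-bound nature of the RNA rests on that text, because the labels give the molecule as total RNA and describe no pull-down. Cre in this line is driven by the Tmem119 gene; age, strain background and the alleles that wildtype mice carried besides are not stated in the labels. Nor do the labels state that replicates were separate animals, so a p-value reflects the spread among these libraries, which may be technical; replicates were numbered in accession order and pair nothing.

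Microglia are the resident macrophages of the brain and spinal cord. EAE is an autoimmune model of multiple sclerosis in which T cells against myelin drive inflammation and demyelination of the spinal cord. In a RiboTag mouse, Cre switches on a tagged version of a ribosomal protein, so that ribosomes of the Cre-expressing cells, with the mRNA they are translating, can be pulled out of whole tissue; RNA of other cells can stick to such a pull-down. Resting microglia express P2ry12, Tmem119, Cx3cr1 and Sall1, while microglia next to damaged or demyelinated tissue raise Apoe, Spp1, Gpnmb, Cst7 and other genes, in part through the lipid receptor Trem2. Interferons raise antiviral genes under the factor Irf7, and interferon gamma raises the antigen-presenting MHC class II genes with their invariant chain Cd74.

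Total counts ran from 27110133 to 40554736 per library, of which autosomal genes held 96.4% to 97.8% and mitochondrial genes 0.0685% to 0.249%. Results below are for the 34850 autosomal genes; 12229 of them had no count in any of the 12 libraries. Among counts of 1 to 10, 71.6% were even numbers, against 51.8% among counts of 1000 to 10000, so small counts mostly came in steps of 2. A few libraries stood apart in ways the labels do not give. Ddx3y, a gene of the Y chromosome, had 18 counts in female wildtype 2 and 40 in female wildtype 3, against 0 in the other female libraries and 95 to 694 in male libraries. Tchh, which encodes a hair follicle protein, had 3904 counts in female wildtype 2 and 7365 in female wildtype 3, against 44 to 144 elsewhere. Female wildtype 5 lay farthest from the rest in overall expression. Results that rest on these libraries are given with and without them.

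Transcript abundance was dominated by macrophage lysosome, complement and lipid genes, with Apoe far above all others. Levels are compared between genes in TPM, counts divided by transcript length and scaled to the same sum in every library. With that fixed sum a larger share for a dominant gene lowers all others. Sums of gene lists, also given in TPM, are not corrected for it. Apoe, the main lipid carrier that macrophages and astrocytes release, had 73463 TPM in female wildtype 3, a median of 138130.4 TPM and 208944 TPM in female wildtype 4, and averaged 133744 ± 47635 TPM (SD, n = 12). It took 6.35%, 12.3% and 19.3% of the counts in the lowest, median and highest library. Next came Ctsd, a lysosomal aspartic protease, at 30551 ± 3394 TPM (SD, n = 12). C1qa, C1qb and C1qc, the 3 chains of the complement starter C1q, averaged 29453 ± 4165, 22350.4 ± 2685 and 10946 ± 1199 TPM and together held 5.45% to 8.38% of all TPM. Ctsd and the C1q chains thus varied between libraries far less than Apoe.

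The other genes of the leading 20 served degradation, antigen presentation and the cytoskeleton. Lysosomal and secreted proteins were Lyz2 (lysozyme, 22608 ± 5904 TPM), Ctss (10217 ± 3409 TPM), Psap (saposin precursor, 8619 ± 947 TPM), Ctsz (5848 ± 686 TPM), Ctsb (4761 ± 659.9 TPM) and the protease inhibitor Cst3 (9578 ± 2046 TPM). Lyz2 has a close paralog, Lyz1, with which reads can be shared, so its level is uncertain. Antigen presentation was represented by B2m, the MHC class I light chain (12243 ± 2660.2 TPM), by Cd74 (7495 ± 2269.6 TPM) and by the class I heavy chain H2-D1 (3594 ± 395 TPM). Actb (8695 ± 1593 TPM) and Cotl1 (3491 ± 639 TPM) are actin and an actin-binding protein. Spp1, the secreted phosphoprotein osteopontin, averaged 8684 ± 2995 TPM, and the macrophage genes Fcer1g, Mpeg1 and Cd68 averaged 2951 ± 424, 2835 ± 786 and 2777 ± 483 TPM (SD, n = 12 throughout). Mpeg1 was lowest in female wildtype 5 at 961 TPM.

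These 20 genes held 27.9%, 34.7% and 41.01% of TPM in the lowest, median and highest library. Over autosomes, 86 genes held 50% of TPM, against 278 genes for 50% of CPM, counts scaled to library size and not divided by length. A mean of at least 1 TPM was reached by 12972 autosomal genes, of which 11017 were protein coding.

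**Figure D1:**
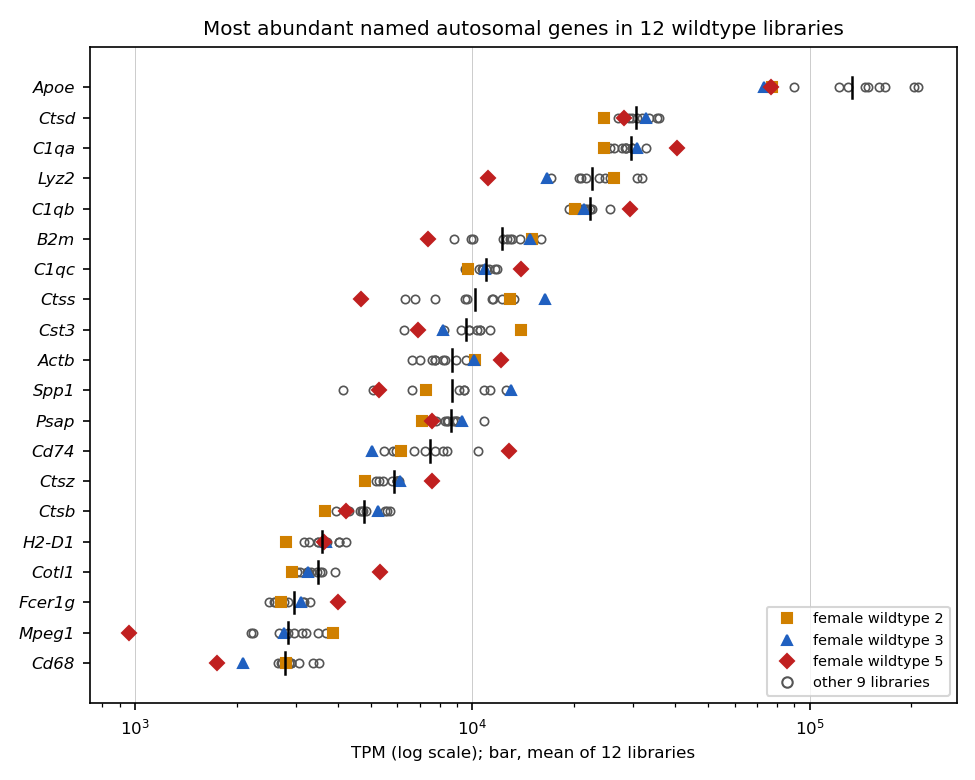
TPM (log axis) of the 20 named autosomal genes with the highest mean, with a point for each of the 12 wildtype libraries and a bar at the mean. Apoe, at 133744 TPM on average, lies well to the right of Ctsd at 30551 TPM, and its points spread from 73463 to 208944 TPM.

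Pseudogenes took a large share of this ranking. Autosomal pseudogenes held 13.6%, 14.9% and 19.04% of TPM in the lowest, median and highest library and filled 29 of the first 100 places. Processed copies of genes stood above their intact parents: Cd63-ps had a mean of 5995 TPM, against 115 TPM for its parent Cd63. Cd63, a tetraspanin of late endosomes, is thereby ranked far below its copy. Rpl10a-ps1 had 2269 TPM, against 5.24 TPM for its parent Rpl10a, Rps16-ps2 had 1665 TPM, against 0.363 TPM for its parent Rps16, and Tpt1-ps3 had 2469 TPM, against 11.98 TPM for its parent Tpt1. The files do not tell how reads that match a gene and its copy were assigned, so levels of such pairs, 21 of them among the most abundant genes, cannot be told apart, and pseudogenes were left out of the named genes.

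Genes of homeostatic microglia were clearly present, with 25 of 26 autosomal members of the list at 1 TPM or more on average. Tmem119 is the microglial membrane protein whose gene drives Cre here. It had 250.5 CPM in male wildtype 1, a median of 332 CPM and 457 CPM in male wildtype 6 (TMM-scaled CPM). Its SD of log2 was 0.29, as was the median SD of all autosomal genes of at least 10 mean CPM. P2ry12, the purinergic receptor that guides microglial processes, varied far more: it had 22.7 CPM in female wildtype 5, a median of 92.5 CPM and 285 CPM in female wildtype 2 (SD of log2 0.92). The fractalkine receptor Cx3cr1 had 655 CPM in female wildtype 5, a median of 1497 CPM and 2423 CPM in female wildtype 2, and Tgfbr1, a receptor for the cytokine TGF-beta, had 104 CPM in female wildtype 5, a median of 536 CPM and 994 CPM in female wildtype 2. All 3 of these wide-ranging genes were thus lowest in female wildtype 5 and highest in female wildtype 2. Per length, members of the list included Cst3 (9578 TPM), Sparc (1161 TPM) and the growth factor receptor Csf1r (918 TPM). The X-linked member Gpr34 was left out.

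General macrophage identity genes were abundant in every library. All 18 listed members had at least 1 TPM, and their summed level was 77087 TPM in male wildtype 1, a median of 83437 TPM and 99529.7 TPM in female wildtype 5. Their members had a median SD of log2 of 0.32, against 0.29 for all autosomal genes of at least 10 mean CPM, so singly they were no steadier than other genes. Tyrobp, the signalling adaptor of Trem2, had 419 CPM in female wildtype 2, a median of 509 CPM and 643 CPM in female wildtype 4 (SD of log2 0.17). Irf8, a transcription factor of the macrophage lineage, and Laptm5, a lysosomal membrane protein, each had an SD of log2 of 0.17. The lineage factor Spi1 was wider at 0.47, with 297 CPM in female wildtype 2, a median of 365 CPM and 705 CPM in female wildtype 5.

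Disease-associated microglial genes were at high levels in every library: 27 of 27 members reached 1 TPM, with a summed level of 146904 TPM in female wildtype 5, a median of 232515 TPM and 291529 TPM in male wildtype 4. Apoe made up much of that sum. The lipid receptor Trem2 had 869 CPM in female wildtype 2, a median of 1136 CPM and 1582 CPM in male wildtype 4, Spp1 had 3206 CPM in male wildtype 6, a median of 6201 CPM and 9035 CPM in female wildtype 6, and the glycoprotein Gpnmb had 1899 CPM in female wildtype 2, a median of 3926 CPM and 7884 CPM in male wildtype 4. Trem2 thus ranged less than Gpnmb and Spp1, which peaked in different libraries. Cst7 (cystatin F), the lectin receptor Clec7a and the integrin Itgax averaged 2036 ± 429.8, 817 ± 181 and 110.4 ± 32.2 TPM (SD, n = 12).

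MHC class II, interferon-stimulated and proliferation genes were highest in the same library, female wildtype 5. MHC class II and costimulatory genes summed to 8368 TPM in female wildtype 3, a median of 10786 TPM and 21169 TPM in female wildtype 5. Among them Cd74 had 3272 CPM in female wildtype 3, a median of 4827 CPM and 10707 CPM in female wildtype 5, and H2-Eb1, H2-Ab1 and H2-Aa, which encode the class II chains, had 752, 1053 and 2958 CPM, 887, 1145 and 3081 CPM and 1018, 1325 and 3079 CPM in the lowest, median and highest library. Ciita, the switch factor of class II genes, averaged 4.61 ± 2.54 TPM (SD, n = 12). MHC class I genes were steadier in sum, at 16482 TPM in female wildtype 5, a median of 20115 TPM and 23208 TPM in female wildtype 3; B2m, the most abundant of them, was also lowest in female wildtype 5 on the CPM scale. H2-Q and H2-T genes are near-identical copies, so their own values are uncertain.

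Interferon-stimulated genes summed to 3204 TPM in male wildtype 5, a median of 3865 TPM and 8262 TPM in female wildtype 5, with 40 of 41 members at 1 TPM or more. The master factor Irf7 had 8.21 CPM in female wildtype 2, a median of 18.7 CPM and 41.8 CPM in female wildtype 5. Isg15, a ubiquitin-like protein, had 15.1 CPM in female wildtype 2, a median of 38.02 CPM and 152 CPM in female wildtype 5, and the viral entry inhibitor Ifitm3 had 88.2 CPM in female wildtype 2, a median of 178 CPM and 715 CPM in female wildtype 5. Both were lowest in the library where Irf7 was lowest and highest where it was highest. Proliferation genes were low, with a summed 81.1 TPM in male wildtype 6, a median of 128 TPM and 504 TPM in female wildtype 5 over 42 genes and 29 of 42 at 1 TPM or more. Top2a, the DNA topoisomerase of dividing cells, had 40.9 CPM in female wildtype 5, 21.3 CPM in female wildtype 3 and 19.99 CPM in male wildtype 3, against 1.19 to 7.23 CPM in the other 9 libraries. In bulk RNA, fewer cells of a type and less RNA per cell cannot be told apart, so these values do not say how many cells divided.

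**Figure D2:**
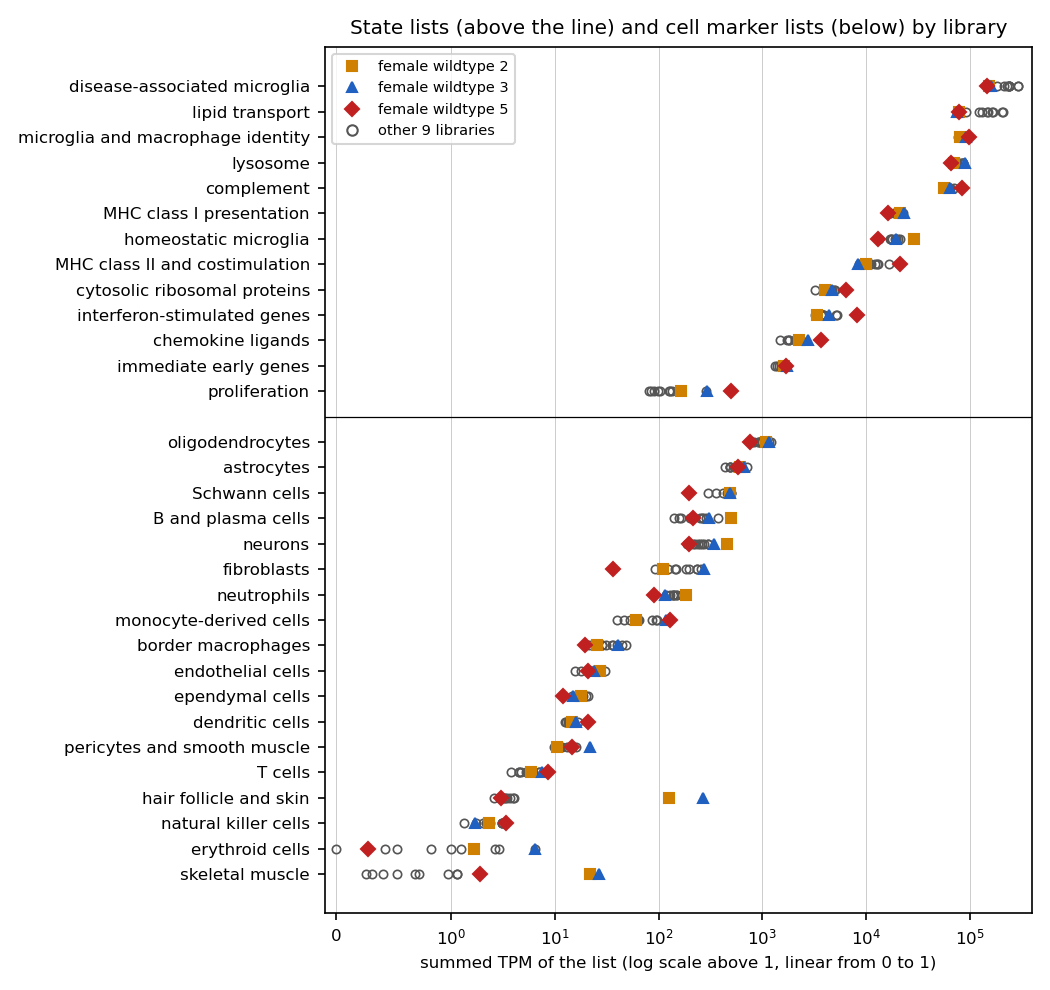
Summed TPM of each gene list (log axis above 1, linear from 0 to 1), with a point for each of the 12 wildtype libraries; state lists stand above the line and markers of other cells below it. State lists lie mostly above 1000 TPM, while most marker lists of other cells lie below 1000 TPM; hair follicle and skin genes reach 269 TPM in female wildtype 3 and 125 TPM in female wildtype 2.

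Marker genes of other spinal cord cells were detected in all 12 libraries, led by those of glia. Whether their RNA came from those cells was not tested. Oligodendrocyte genes summed to 768 TPM in female wildtype 5, a median of 950.4 TPM and 1219 TPM in female wildtype 1, and Mbp, the myelin basic protein, gave 582 TPM of that on average. Mbp thus averaged more than the microglial genes Tmem119 (362 TPM), P2ry12 (102 TPM) and Trem2 (558 TPM) and less than Cx3cr1 (809 TPM). On the CPM scale Mbp was steady, with 1702 CPM in female wildtype 5, a median of 2054 CPM and 2443 CPM in female wildtype 1. Astrocyte genes summed to 437 TPM in male wildtype 4, a median of 554 TPM and 712 TPM in female wildtype 1, led by S100b at 217 and Gfap at 170.1 TPM, and Gfap had 190.4 CPM in female wildtype 2, a median of 295 CPM and 576 CPM in female wildtype 5. Neuronal genes summed to 186 TPM in male wildtype 4, a median of 258 TPM and 452 TPM in female wildtype 2, led by the neurofilament gene Nefl at 65.9 TPM. Apoe held 204025 TPM in male wildtype 4 and 77160 TPM in female wildtype 2, and these sums are not corrected for that. Schwann cell genes summed to 198 TPM in female wildtype 5, a median of 470.3 TPM and 499.96 TPM in male wildtype 1, but 419 TPM of the mean was Pmp22, which other cells also express.

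Genes of vessels and of the ependyma were lower still, and lists of blood cells differed widely. Endothelial, pericyte and ependymal genes summed to 15.6, 22.7 and 30.2 TPM, to 9.81, 13.7 and 21.9 TPM and to 12.1, 17.4 and 21.01 TPM in the lowest, median and highest library. Fibroblast genes ranged more, with 36.7 TPM in female wildtype 5, a median of 166 TPM and 273 TPM in female wildtype 3; Lum, a collagen-binding proteoglycan, had 0.966 CPM in female wildtype 5, a median of 15.9 CPM and 28.6 CPM in male wildtype 2. T cell genes summed to 3.77, 5.65 and 8.56 TPM and natural killer cell genes to 1.32, 2.32 and 3.36 TPM. Neutrophil genes summed to 90.8, 139 and 184 TPM, nearly all of it the cytokine receptor Csf3r (135 TPM), while Ly6g and Retnlg, which define neutrophils, had 0 counts in all 12 libraries. The B and plasma cell list reached 142, 259 and 499 TPM through Ighm (247 TPM) and Cd79b (12.6 TPM), while Ms4a1 and Pax5 had 0.0128 and 0.00305 TPM.

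Genes of infiltrating or border myeloid cells were also low beside those of microglia. Border macrophage genes summed to 19.5 TPM in female wildtype 5, a median of 33.4 TPM and 48.3 TPM in male wildtype 3. Monocyte-derived cell genes summed to 39.8 TPM in female wildtype 4, a median of 64.1 TPM and 128 TPM in female wildtype 5, of which the matrix protein fibronectin, Fn1, gave 58.6 TPM on average. Dendritic cell genes summed to 12.4, 14.002 and 20.9 TPM in the lowest, median and highest library. Hair follicle and skin genes summed to 2.57, 3.38 and 269 TPM, with 269 TPM in female wildtype 3 and 125 TPM in female wildtype 2, and skeletal muscle genes to 0.264, 0.845 and 26.6 TPM, with 26.6 TPM in female wildtype 3 and 21.6 TPM in female wildtype 2. Erythroid genes summed to 0, 1.12 and 6.43 TPM, highest in female wildtype 3. What part these other cells play in the differences between libraries was not tested.

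Most genes differed little between wildtype libraries. Among the 8164 autosomal genes with a mean of at least 10 CPM, the SD of log2(CPM + 0.5), taken after removing each sex's mean, had a median of 0.29 and a 5th to 95th percentile range of 0.13 to 0.56. An SD over 1 was seen for 28 genes (0.343%). The extreme library was female wildtype 5 for 18 of those 28 genes, and it was the lowest for 13 of them. Without that library the median SD was 0.23 and 11 genes had an SD over 1; without female wildtype 2, 3 and 5 the median was 0.22 and 5 of the 8164 genes did.

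The genes with the widest spread included those for antibody, acute-phase, chemokine and matrix proteins, and some shared their extreme libraries. Saa3, Ccl8 and Serpina3g were lowest in female wildtype 2 and highest in female wildtype 5, and Mmp12, Hpgd and St8sia6 were the reverse. Igkc, the antibody kappa light chain, had 0.2203 CPM in female wildtype 3, a median of 0.863 CPM and 122 CPM in female wildtype 1 (SD of log2 2.204); its next highest library held 12.8 CPM. Saa3, an acute-phase serum amyloid gene, had 5.61 CPM in female wildtype 2, a median of 78.1 CPM and 546 CPM in female wildtype 5 (SD 1.66). Thus Igkc stood out in a library that was unremarkable for Saa3, and the reverse. The chemokine Ccl8 had 2.78 CPM in female wildtype 2, a median of 17.9 CPM and 67.6 CPM in female wildtype 5, and Cxcl13, which attracts B cells, had 3.83 CPM in male wildtype 4, a median of 18.1 CPM and 105 CPM in male wildtype 3. Mmp12, a macrophage elastase, had 1.201 CPM in female wildtype 5, a median of 16.7 CPM and 77.1 CPM in female wildtype 2, and Igf2, an insulin-like growth factor, had 26.5 CPM in female wildtype 5, a median of 273 CPM and 560.3 CPM in female wildtype 6. Serpina3g, a protease inhibitor of a family of near-identical genes and therefore uncertain, had 4.57 CPM in female wildtype 2, a median of 10.6 CPM and 93.5 CPM in female wildtype 5, and Il12rb1, an interleukin receptor chain, had 3.72 CPM in male wildtype 2, a median of 7.55 CPM and 51.9 CPM in female wildtype 5. Female wildtype 5 was the lowest library for some of these and the highest for others.

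The other widely spread named genes included Tchh, with an SD of 2.09 set by the 2 libraries described above, the sialyltransferase St8sia6 (1.28), the basement membrane gene Nid1 (1.26), the prostaglandin-degrading enzyme Hpgd (1.22), Lum (1.21) and the NAD hydrolase Cd38 (1.13). At the narrow end, the DNA repair gene Aptx ran from 18.8 to 21.2 CPM and the signalling adaptor Grb2 from 442 to 518 CPM, each with an SD of log2 of 0.05. Mdp1, Zfp384 and Rprd1b followed at 0.06, 0.06 and 0.06.

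**Figure D3:**
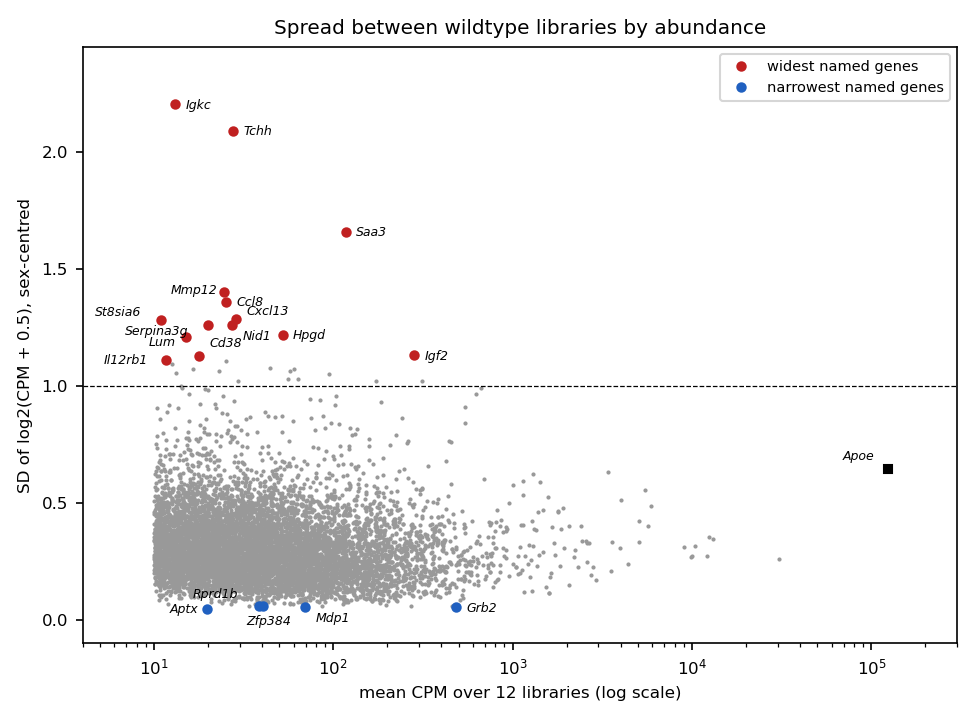
SD of log2(CPM + 0.5) after removing each sex's mean, against mean CPM (log axis), for 8164 autosomal genes of at least 10 mean CPM; the dashed line marks an SD of 1, and the widest and narrowest named genes are coloured. Most genes lie under an SD of 0.56, Igkc and Tchh lie above 2, and Apoe combines the highest mean with an SD of 0.65.

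Co-variation between libraries followed 1 main axis. The first principal component of these 8164 genes held 59.5% of the variance left after removing each sex's mean, the second 16.3% and the third 7.597%. Female wildtype 5 scored 54.6 on the first, male wildtype 6 21.1, male wildtype 4 18.3 and female wildtype 4 12.2, while female wildtype 2 and 3 were lowest at -28.8 and -20.7. Genes with the strongest positive loadings were Il12rb1, Serpina3g, Batf2, Socs3, Saa3, Ly6a, Serpina3f and Tspo, several of them known as interferon- or cytokine-induced; the strongest negative ones included Tchh, Hpgd, St8sia6, Mmp12, Lum, Kcnj2 and Igkc. On the second component the positive side held Saa3, the chemokines Ccl8, Cxcl13 and Ccl2, and the cell cycle genes Ccna2, Cdk1 and Racgap1 beside Tchh, and the negative side held Igkc, Prelp, Mmp12, Pla2g2d, Ephx1, Pi16, C77080 and Gpx3.

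The same axis moved with base composition. Across the 8164 genes, the loading on the first component had a Pearson r of 0.63 with the transcript's GC content and -0.46 with log10 of its length; genes are not independent replicates, so no p is given. In female wildtype 5, genes with a GC content of up to 46.05% lay -0.42 from its sex's mean on the log2 scale (median), and genes from 54.9% GC upwards lay 0.42 from it. Female wildtype 3 showed the reverse, with 0.31 for low-GC and -0.23 for high-GC genes. A library's GC slope, the change of its log2 deviation per 10 percentage points of GC, ran from -0.38 in female wildtype 3 to 0.4996 in female wildtype 5 and tracked the first component over the 12 libraries (r 0.944, both from the same counts, so given as a description). Without female wildtype 5 the first component held 51.9% and its loadings had an r of 0.73 with GC content. Whether the base composition or the state of the cells sets this axis was not tested.

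**Figure D4:**
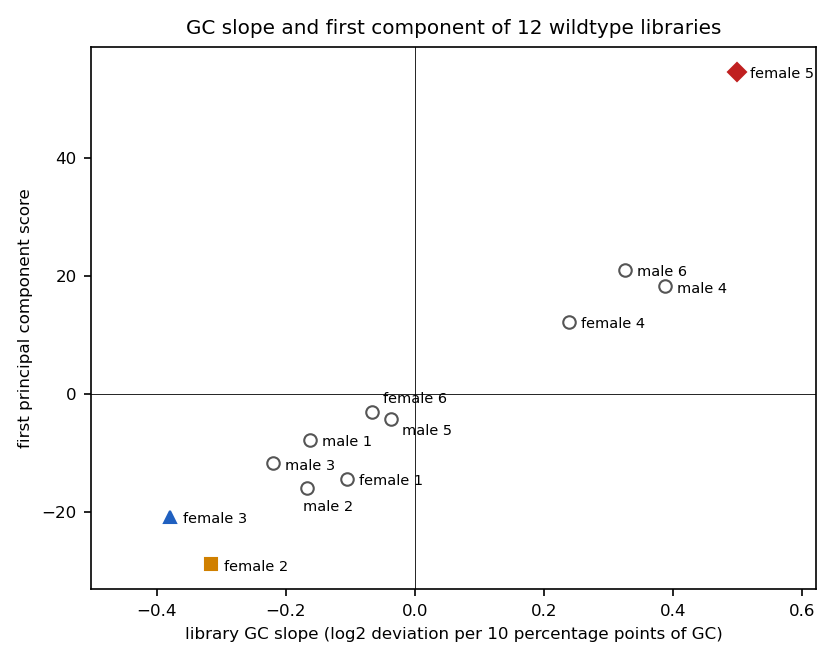
Score of each of the 12 wildtype libraries on the first principal component against its GC slope (log2 deviation per 10 percentage points of GC). Female wildtype 5 lies at the upper right, female wildtype 2 and 3 lie at the lower left, and male wildtype 4 and 6 and female wildtype 4 have positive slopes.

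Genes that moved with each of 7 anchor genes were then sought among 15064 tested autosomal genes. The anchors were Irf7 (interferon response), Cd74 (MHC class II), Top2a (proliferation), P2ry12 (homeostasis), Apoe (lipid transport), Fos (immediate early response) and Mbp (oligodendrocyte marker). Slopes from edgeR's quasi-likelihood test give the log2 change of a gene per log2 unit of the anchor, with sex as a term; a gene was called at a Benjamini-Hochberg adjusted p under 0.05. The anchors differ in how much they share with the GC slope over the 12 libraries (Pearson r, as a description): 0.85 for Cd74, 0.72 for Irf7, 0.63 for Apoe, -0.84 for P2ry12 and -0.14 for Top2a.

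With Irf7, other antiviral genes rose. Positive slopes passed for 1725 genes (11.5% of those tested) and negative ones for 1333 (8.85%), 20.3% in either direction. Of the 40 tested interferon-stimulated genes, 23 had a positive and 0 a negative slope past the threshold, with a median slope of 0.53 against -0.004701 for all genes. Isg15 had a slope of 1.17 (SE 0.14, adjusted p = 0.00263). The oligoadenylate synthetase family genes Oasl1 and Oas1a, whose close copies make Oas1a uncertain, had slopes of 1.36 (SE 0.16, adjusted p = 0.00263) and 0.91 (SE 0.11, adjusted p = 0.00263). Ifi47, a GTPase induced by interferon gamma, had 16.4 CPM in female wildtype 2, a median of 41.3 CPM and 141 CPM in female wildtype 5 and a slope of 1.15 (SE 0.15, adjusted p = 0.00358). The RNA sensor Dhx58, the nucleic acid sensor Zbp1, Ifitm3 and Serpina3f completed the 8 with the smallest p, at slopes of 0.73, 1.15, 1.03 and 1.36.

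MHC genes rose beside Irf7 as well, with 12 positive of 16 class I genes (median slope 0.37) and 9 positive and 1 negative of 13 class II genes (median 0.62). Of 26 homeostatic genes, 7 fell and 1 rose (median -0.23), and of 38 proliferation genes 10 rose (median 0.81). Markers of neurons moved as well, with 6 falling and 1 rising of 19 (median -0.28); their part in the fall of homeostatic genes was not tested. The genes with the smallest p for a negative slope were Sowahc (-0.79), the adhesion molecule Alcam (-1.19), Rictor, a subunit of the mTOR kinase complex (-0.91), Msi2, Zfp790, Rgs1, Tmem170b and the repressor Bcl6. These calls rested on female wildtype 5 and 2: without female wildtype 5 no gene passed edgeR's test (1574 at an unadjusted p under 0.05), although the median slope of the interferon-stimulated list was 0.51, without female wildtype 2, 3 and 5 none passed either (523 at an unadjusted p under 0.05), and without female wildtype 2, 64 rose and 17 fell. Without male wildtype 2, 3 or 6 the counts were 1014 and 645, 2739 and 2450, and 1110 and 610 genes up and down; with the library GC slope as a term, 5 rose and 0 fell, and 5 of those were on the interferon-stimulated list. With a further term for a number that the sample titles carry, no gene passed (2816 at an unadjusted p under 0.05) and the list's median slope was 0.53.

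The promoters of the interferon-stimulated genes among these 8 show how far they share a regulatory word, GAAA followed by any 2 bases and another GAAA, the core to which interferon regulatory factors are known to bind. It was searched on both strands, overlapping matches included, in 300 bases from 250 before to 50 after the start site as RefSeq gives it for GRCm38.p6. It occurs in 900 of 25748 such promoters (3.50%) and in 19 of 30 of the list's members with a promoter in the table. Capitals mark the matches in the promoters of Isg15 at chr4:156200769-156201068 (minus strand, 3 overlapping matches), Oas1a at chr5:120907476-120907775 (minus strand, 2), Ifitm3 at chr7:141010695-141010994 (minus strand, 2, both after the start site) and Ifi47 at chr11:49076337-49076636 (plus strand, none).
Isg15: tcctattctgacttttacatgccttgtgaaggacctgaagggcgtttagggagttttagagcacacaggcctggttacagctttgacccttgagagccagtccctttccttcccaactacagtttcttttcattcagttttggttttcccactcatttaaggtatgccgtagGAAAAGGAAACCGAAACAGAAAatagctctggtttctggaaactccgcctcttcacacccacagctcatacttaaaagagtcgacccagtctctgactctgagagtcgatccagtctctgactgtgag
Oas1a: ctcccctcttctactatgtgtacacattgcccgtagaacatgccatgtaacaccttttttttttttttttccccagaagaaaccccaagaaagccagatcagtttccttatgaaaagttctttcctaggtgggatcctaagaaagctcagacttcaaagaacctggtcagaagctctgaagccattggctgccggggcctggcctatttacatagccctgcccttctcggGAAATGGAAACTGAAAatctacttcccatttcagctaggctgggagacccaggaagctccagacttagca
Ifitm3: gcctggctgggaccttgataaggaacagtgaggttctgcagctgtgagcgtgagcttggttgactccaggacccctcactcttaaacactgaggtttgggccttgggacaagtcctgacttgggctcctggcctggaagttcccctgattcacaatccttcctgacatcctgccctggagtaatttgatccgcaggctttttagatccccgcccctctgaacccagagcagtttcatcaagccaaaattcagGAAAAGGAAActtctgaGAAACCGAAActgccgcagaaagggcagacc
Ifi47: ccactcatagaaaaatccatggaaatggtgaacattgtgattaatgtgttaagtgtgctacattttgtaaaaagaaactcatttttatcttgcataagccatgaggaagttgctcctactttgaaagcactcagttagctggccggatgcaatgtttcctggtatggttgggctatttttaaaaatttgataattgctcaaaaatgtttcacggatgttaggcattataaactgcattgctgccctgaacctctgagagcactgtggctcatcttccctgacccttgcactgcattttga

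The words of Isg15 run into one another as a single stretch of GAAA repeats, those of Oas1a overlap next to the start site, and Ifi47 has no such letters in its window. A match is a description of the sequence and not of binding; Dhx58 and Zbp1 are named only.

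With Cd74, the class II chains rose almost in step. Positive slopes passed for 2972 genes (19.7%) and negative ones for 2754 (18.3%), 38.0% in either direction. Of the 12 other class II and costimulatory genes 9 rose and 0 fell (median slope 0.92, against -0.00662 for all genes). H2-Eb1 had a slope of 1.11 (SE 0.08, adjusted p = 4.61e-06), H2-Ab1 of 1.04 (SE 0.08, adjusted p = 8.53e-06) and H2-Aa of 0.94 (SE 0.08, adjusted p = 8.53e-06), each near 1 log2 unit per log2 unit of Cd74. The other genes with the smallest p were the interferon-gamma-induced factor Batf2 (1.66), the interleukin-15 receptor chain Il15ra (1.28), transglutaminase Tgm2 (1.26) and the channel gene Calhm6 (0.87). The miRNA gene Mir5107, with a slope of 0.95, lies inside Cd74 on the same strand, so its reads cannot be told apart from those of Cd74.

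Class I, interferon-stimulated and ribosomal protein genes leaned the same way: 11 rose and 1 fell of 16 class I genes (median 0.42), 13 rose and 0 fell of 41 interferon-stimulated genes (median 0.35), and 27 rose and 2 fell of 69 ribosomal protein genes (median 0.42). Several ribosomal protein genes, such as Rps16 and Rpl10a, stood far below a processed copy, so the slopes of that list are uncertain. Homeostatic genes leaned the other way, with 12 falling and 2 rising of 26 (median -0.34), and 3 of 8 fibroblast genes fell (median -0.82). Some markers of other cells were called too, against 18.3% falling and 19.7% rising over all genes tested. Of 19 neuronal genes 7 fell and 2 rose (median -0.46), and of 11 astrocyte genes 4 fell and 2 rose (median -0.22). Of 14 oligodendrocyte genes 4 fell and 2 rose (median -0.33). Whether these short lists differ from the shares over all genes was not tested, nor was their part in these slopes. The genes of smallest p with a negative slope were Cnot6l, a deadenylase subunit (-1.002), the acetyltransferase Ep300 (-0.99), Ccng2 (-1.04), Slc4a7, Fam76b, Cpeb2, Cep170 and Dock10. Called genes with a positive slope had a median GC content of 54.98% and those with a negative slope 44.7%. Without female wildtype 5, 5 genes rose and 0 fell, 3 of them class II genes; without female wildtype 2, 3 and 5 the counts were 5 and 0, 4 of them class II genes, and with the GC slope as a term 2 rose and 0 fell, 2 of them class II genes. A term for replicates 1 to 3 against 4 to 6 left 10 rising and 0 falling, 4 of them class II genes, and a term for the title number left 4 and 0, 2 of them class II genes.

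The promoters of H2-Eb1 at chr17:34305617-34305916 (plus strand) and H2-Aa at chr17:34287774-34288073 (minus strand), chosen after their slopes were seen, each hold 1 Y box, the letters CTGATTGG of the class II promoter module, in capitals below. It starts 62 bases before the start site in H2-Eb1 and 51 in H2-Aa. The word occurs in 4.23% of all promoters of this length on either strand and in 3 of 8 members of the class II list with a promoter in the table; H2-Ab1 is named only.
H2-Eb1: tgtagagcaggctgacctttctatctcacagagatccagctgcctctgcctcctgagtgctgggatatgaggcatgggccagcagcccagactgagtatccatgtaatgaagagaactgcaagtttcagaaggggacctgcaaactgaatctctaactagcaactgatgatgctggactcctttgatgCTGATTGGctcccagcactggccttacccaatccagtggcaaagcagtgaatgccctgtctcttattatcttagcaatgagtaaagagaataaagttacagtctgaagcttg
H2-Aa: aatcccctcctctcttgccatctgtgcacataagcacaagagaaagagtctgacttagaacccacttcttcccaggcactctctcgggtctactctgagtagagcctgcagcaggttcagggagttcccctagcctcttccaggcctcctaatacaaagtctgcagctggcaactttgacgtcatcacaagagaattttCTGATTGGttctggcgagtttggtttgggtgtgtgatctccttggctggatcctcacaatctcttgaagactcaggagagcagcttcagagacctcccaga

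With Top2a, cell division genes rose. Slopes past the threshold were positive for 145 genes (0.963%) and negative for 14 (0.0929%), 1.06% in either direction, and 27 of the 37 other proliferation genes were among the positive and none among the negative (median slope 0.72, against 0.01 for all genes). Prc1, which bundles the microtubules of the dividing spindle, had 0.869 CPM in female wildtype 4, a median of 2.38 CPM and 23.3 CPM in female wildtype 5 and a slope of 1.12 (SE 0.06, adjusted p = 2.17e-07). The spindle assembly factor Tpx2 and the cyclin Ccna2 had slopes of 0.95 (SE 0.06, adjusted p = 1.30e-06) and 0.8003 (SE 0.06, adjusted p = 3.34e-06). Stmn1, the mitotic kinases Aurkb, Pbk and Nek2 and the kinetochore gene Nuf2 followed, with slopes of 0.596, 0.76, 1.12, 1.04 and 0.97. These genes, chosen for their slope on Top2a, were high in the same 3 libraries as Top2a, female wildtype 5, female wildtype 3 and male wildtype 3.

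The genes with a negative slope on Top2a included the integrin Itgax, with a slope of -0.32 (SE 0.05, adjusted p = 0.00588), Matk, Snx29, Il4i1, Pianp, Asb10, Cd300a and Tox2. Of the proliferation list, 26 of 37 rose without female wildtype 5, 20 of 36 without female wildtype 2, 3 and 5, and 34 of 37 with the GC slope as a term. Over all genes 132 rose and 64 fell of 15196 without female wildtype 5, and 51 rose and 1 fell of 15369 without female wildtype 2, 3 and 5. With the GC slope as a term 677 rose and 360 fell of 15064, so calls grew over all genes as well. The promoter of Prc1 at chr7:80294201-80294500 (plus strand, 1 of 2 windows given by RefSeq), chosen after its slope was seen, holds 1 match to the cell cycle homology region TTTGAA, in capitals, at its start site. That short word occurs in 17.7% of all promoters of this length and in 24 of 36 proliferation genes with a promoter in the table; Ccna2 is named only.
Prc1: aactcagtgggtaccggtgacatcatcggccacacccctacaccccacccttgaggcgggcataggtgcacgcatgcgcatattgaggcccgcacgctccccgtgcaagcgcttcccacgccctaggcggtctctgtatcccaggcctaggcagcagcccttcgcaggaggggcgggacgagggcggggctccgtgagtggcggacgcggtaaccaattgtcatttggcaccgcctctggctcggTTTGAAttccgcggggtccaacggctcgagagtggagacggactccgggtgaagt

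With P2ry12, part of the homeostatic programme rose while antigen presentation and interferon genes fell. Slopes were positive for 3001 genes (19.9%) and negative for 3227 (21.4%), 41.3% in either direction. Of the 25 other homeostatic genes, 11 rose and 2 fell (median slope 0.24, against -0.00103 for all genes). Tgfbr1 had a slope of 0.87 (SE 0.09, adjusted p = 8.83e-05), the microglial factor Sall1 one of 0.51 (SE 0.07, adjusted p = 1.47e-04), and Siglech and Cx3cr1 had 0.58 and 0.46. Crybb1 and the nucleotide receptor P2ry6 fell, with slopes of -0.496 and -0.26. Tmem119, which did not pass, had a slope of -0.02 (SE 0.09, adjusted p = 0.843), and Csf1r one of 0.16 (SE 0.08, adjusted p = 0.104).

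Of 13 class II genes 10 fell and 2 rose (median -0.48), of 16 class I genes 12 fell and 1 rose (median -0.29), and of 41 interferon-stimulated genes 19 fell and 0 rose (median -0.296). Ribosomal protein genes fell for 34 and rose for 2 of 69, again uncertain because of their processed copies. Markers of neurons moved with P2ry12 too: 9 rose and 2 fell of 19 (median 0.25), and their summed level was lowest in male wildtype 4 at 186 TPM and highest in female wildtype 2 at 452 TPM, the library in which P2ry12 was also highest; their part in these slopes was not tested. Among single genes Hpgd had 6.84 CPM in female wildtype 5, a median of 44.5 CPM and 161 CPM in female wildtype 2 and a slope of 1.33 (SE 0.09, adjusted p = 9.09e-07), followed by Kctd12 (0.82), Gpr155, Fam102b, the factor Ets1, Tppp, the sialyltransferase St3gal6 and Lrba. The selenoprotein Msrb1 led the genes that fell, at -0.73 (SE 0.06, adjusted p = 1.41e-05), followed by Igfbp6, Jdp2, the mitochondrial carrier Slc25a10, Amdhd2, Phb2, Scly and Timm13. Without female wildtype 5, 770 genes rose and 810 fell, with 8 homeostatic genes rising and 0 falling. Without female wildtype 2, 3 and 5 the list had 0 rising, 2 genes rising in all. With the GC slope as a term 384 genes rose and 281 fell of 15064 tested. Among those rising were 8 of the 25 other homeostatic genes and 2 of the 19 neuronal markers. With a term for the title number 1003 genes rose and 495 fell, 7 and 1 of them homeostatic, and with one for replicates 1 to 3 against 4 to 6 1752 and 1929.

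With Apoe, few genes moved. Slopes were positive for 47 genes (0.312%) and negative for 33 (0.219%), 0.531% in either direction. Among 14 other lipid transport genes 2 rose and 0 fell (median 0.32, against -0.01 for all genes): the apolipoprotein Apoc1, with 1.17 (SE 0.21, adjusted p = 0.0357), and the cholesterol exporter Abcg1, with 0.49 (SE 0.097, adjusted p = 0.0484). Apoc1 (chr7:19689481-19692660) is the neighbour of Apoe (chr7:19696109-19699188) on chromosome 7. In the disease-associated list 1 of 26 rose, Trem2, with a slope of 0.39 (SE 0.08, adjusted p = 0.0485). The genes with the smallest p were the secreted glutathione peroxidase Gpx3, at 1.28 (SE 0.17, adjusted p = 0.0181), then Pianp, the lysosomal exonuclease Pld3, Vwa1, Cd300a, Adamts15, Plekhm2 and C77080; the creatine synthesis enzyme Gatm led the genes that fell, at -0.77 (SE 0.11, adjusted p = 0.0181), before the nuclear envelope genes Lmnb1 and Lbr, Hnrnpd, Dck, Gng10 and Slc16a6. Proliferation genes had a median slope of -1.26, with 1 of 38 past the threshold. Left-out libraries moved these counts in both directions: without female wildtype 5, 2240 genes rose and 2174 fell, 8 of them rising lipid transport and 30 falling proliferation genes, while none passed without female wildtype 3 (2244 at an unadjusted p under 0.05), female wildtype 4 or male wildtype 2, 3 or 4. Without female wildtype 1 or 6 or male wildtype 1, 5 or 6, 2 to 37 genes passed. With a term for replicates 1 to 3 against 4 to 6, 1 gene rose and 0 fell.

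No gene passed the test with Fos or with Mbp. Fos, an immediate early factor that cell isolation is known to raise, was low, with 1.598 CPM in male wildtype 6, a median of 2.72 CPM and 4.296 CPM in female wildtype 3, and 249 genes had an unadjusted p under 0.05 in edgeR; DESeq2 called 0. Of 20 other immediate early genes none passed (median slope 0.34); its partner Jun had a slope of 0.597 (SE 0.15), and Cd6 and Bmp1 were next, at 2.48 and 0.95, while Trim30c, Mex3b and Unc13b had the smallest p on the negative side. Mbp ranged over 0.52 log2 units over the 12 libraries, and 476 genes had an unadjusted p under 0.05 in edgeR, against 1 called by DESeq2. Of 13 other oligodendrocyte genes none passed, with a median slope of 0.77 against -0.08 for all genes. Among the other named genes Gpr17, known from oligodendrocyte precursors and not on that list, had the smallest p, with a slope of 3.21 (SE 0.65, adjusted p = 0.996).

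**Figure D5:**
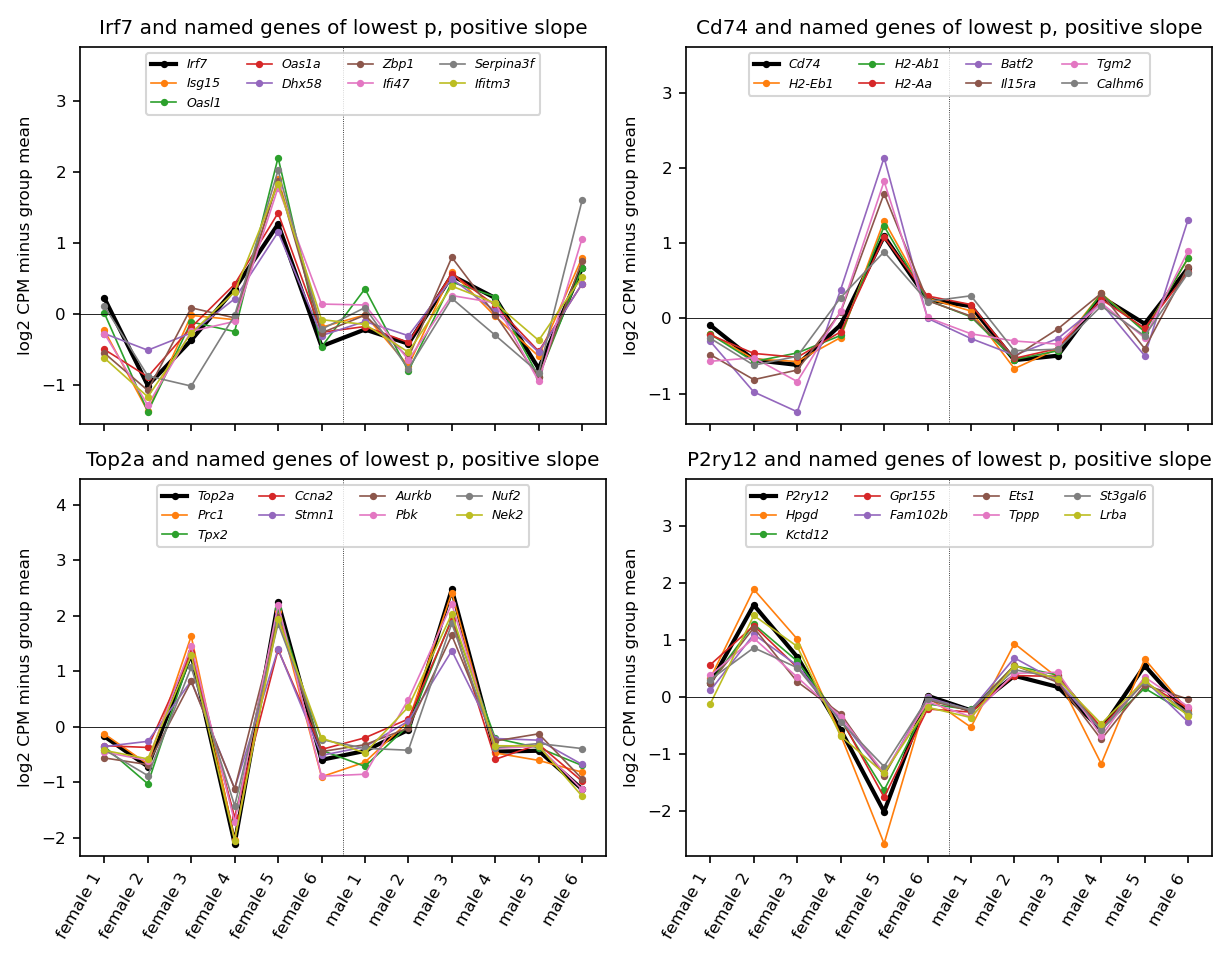
Log2 CPM of Irf7, Cd74, Top2a and P2ry12 (black) and of the named genes with the smallest p for a positive slope on each, in the 12 wildtype libraries, as the difference from the mean of the library's sex. Lines follow the anchor in each panel because the genes were chosen for that slope in these same libraries. Female wildtype 5 is the highest library for the genes of Irf7 and Cd74 and the lowest for those of P2ry12. Top2a and its genes are high in female wildtype 3 and 5 and male wildtype 3.

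Set against each other over the 12 libraries, after removing each sex's mean, the anchors formed 21 pairs, tested by 100000 two-sided permutations within sex with Benjamini-Hochberg adjustment over the pairs. P2ry12 moved against Irf7, with Pearson r -0.84 (permutation p = 0.00206, adjusted p = 0.0249) and Spearman rho -0.78 (permutation p = 0.00613, adjusted p = 0.0644); r was -0.596 without the 2 libraries farthest from the median of Irf7, -0.94 and -0.62 within the 6 female and the 6 male libraries, and -0.695 and -0.92 within replicates 1 to 3 and 4 to 6. P2ry12 also moved against Cd74, with Pearson r -0.83 (permutation p = 0.00237, adjusted p = 0.0249) and Spearman rho -0.78 (permutation p = 0.00604, adjusted p = 0.0644); r was -0.69 without the 2 libraries farthest from the median of Cd74, -0.91 and -0.71 within the 6 female and the 6 male libraries, and -0.68 and -0.81 within replicates 1 to 3 and 4 to 6. The sign was thus the same in every subset for both pairs, while the rank correlations did not pass after adjustment. P2ry12, Irf7 and Cd74 each moved with the library GC slope as well (r -0.84, 0.72 and 0.85 over the 12 libraries). Neither pair was tested with that slope removed, so these correlations cannot be told apart from a shared movement with base composition. Top2a and Apoe had Pearson r -0.705 (permutation p = 0.0203, adjusted p = 0.142) and Spearman rho -0.66 (permutation p = 0.0316, adjusted p = 0.221), which did not pass; r was -0.695 without the 2 libraries farthest from the median of Top2a, -0.62 and -0.85 within the 6 female and the 6 male libraries, and -0.59 and -0.91 within replicates 1 to 3 and 4 to 6. Irf7 and Cd74 did not pass either, with Pearson r 0.65 (permutation p = 0.03701, adjusted p = 0.194) and Spearman rho 0.503 (permutation p = 0.116, adjusted p = 0.407). Both calls were lost with single libraries: no pair passed without female wildtype 1, without female wildtype 3, without female wildtype 5 or without male wildtype 2, and 1 passed without female wildtype 2 or 4 or male wildtype 5. Nor did any pair pass without female wildtype 2, 3 and 5, or after centring within replicates 1 to 3 and 4 to 6 as well as sex.

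The sample titles carry a number whose meaning the labels do not give, and it divides the libraries into 4 sets. Title set A holds 4 libraries (female wildtype 5 and male wildtype 4, 5 and 6) and title set B holds 5 (female wildtype 3 and 4 and male wildtype 1, 2 and 3); of the other sets, 1 holds 2 libraries and the other 1. Between title sets A and B no autosomal gene passed edgeR's test (0.0% of 15065; 4805 at an unadjusted p under 0.05), whereas DESeq2 called 1420 higher and 1177 lower in title set A. The genes with the smallest p fell just short of the threshold and included Cebpb and Cebpd, transcription factors of the inflammatory response. Cebpb had 584, 218, 203 and 311 CPM in the libraries of title set A, against 152, 243, 128, 115 and 110.2 CPM in those of title set B. The log2 change of Cebpb was 1.21 (SE 0.17, adjusted p = 0.0536), and that of Cebpd 1.03 (SE 0.16, adjusted p = 0.0536). For Cebpb the libraries of title set A lay above all those of title set B except female wildtype 4, which lay among them. On the other side Dcn, a proteoglycan of fibroblasts, had 27.1, 57.6, 52.8 and 29.4 CPM in the libraries of title set A, against 125, 71.8, 149, 98.8 and 102 CPM in those of title set B. Its log2 change in edgeR was -1.48 (SE 0.25, adjusted p = 0.0536). Cebpb and Dcn were named for a small p in this same comparison, so how far their values separate adds no support. Zfp771, March7 and the antisense RNA Hoxaas2 were next, at log2 changes of 1.196, -1.23 and -2.84.

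Class II and costimulatory genes had a median log2 change of 0.92 between title sets A and B, against -0.00173 for all genes. None of 13 passed edgeR's threshold and 8 passed that of DESeq2, which called 1420 genes higher and 1177 lower of 15065. Cd74 had 10707, 6296, 4922 and 8226 CPM in the libraries of title set A, against 3272, 4731, 5789.8, 3520.5 and 3668 CPM in those of title set B. Fibroblast genes had a median of -1.097, with none of 8 past edgeR's threshold and 5 lower by DESeq2. Without female wildtype 5 the median was 0.54 for class II and -0.56 for fibroblast genes. Leaving out 1 library decided the count: without female wildtype 4, 1535 genes were higher and 1386 lower, without male wildtype 5 1583 and 1312, without female wildtype 3 194 and 133, and without male wildtype 4 0 and 1. Library GC slopes ran from -0.04 to 0.4996 in title set A and from -0.38 to 0.24 in title set B, and with that slope as a term the median of the class II list was 0.27 and that of the fibroblast list -0.86. All libraries of title set A stand among replicates 4 to 6 in accession order, where only female wildtype 4 belongs to title set B, so the title set and the place in that order cannot be told apart.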

How the data were processed

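The count table held 39017 Ensembl identifiers and 24 libraries in whole-number counts, deposited by the authors without normalization. Per the labels, RNA was isolated with Direct-zol RNA MiniPrep Plus, enriched for mRNA and made into stranded libraries with a KAPA kit. The submitters' processing notes name bcl2fastq 2.17, Trimmomatic, FastQC and the build mm10. How reads were aligned and counted, with which strand setting and with what rule for shared reads, is not given in the sources used here. Without a stated strand setting, reads of overlapping and antisense genes cannot be told apart. The members and lists were chosen with earlier results of these data known.

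Identifiers were matched to GENCODE M21 (37693, or 96.6%; the unmatched held 0.568% of counts), and 2547 X-linked and 173 Y-linked ones were left out. TPM was computed from counts and exon length, and CPM with TMM factors (0.874 to 1.16). Slopes and the title number comparison were fitted to the counts with edgeR 4.0.16 (quasi-likelihood, sex as a term, filterByExpr, Benjamini-Hochberg over all genes); DESeq2 1.42.0 was an alternative, beside RLE size factors, no count filter, no sex term, further terms and left-out libraries. Fits were tested on simulated data with 200 changed genes. Named genes were the 20 highest by TPM, the 15 widest and 5 narrowest by SD, up to 8 per direction and anchor by p, and the leading members of each list; a few more list members were named after their values were seen, and a few genes that the rule chose are not reported here. Software was R 4.3.3, limma 3.58.1, Python 3.11.15, numpy 2.4.6, scipy 1.17.1, pandas 2.3.3 and matplotlib 3.10.9.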

Additional observations from a re-analysis of the deposited data

Results flagged for a closer look

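Each of 78 measures was looked at in the 6 female and the 6 male libraries apart (156 sets of 6 values). In 20 sets 1 library stood off from the other 5 by more than Dixon's critical share of the set's whole range for 6 values. Normal values drawn at random pass that share in about 1 set in 20. Some measures were chosen for wide spread in these same libraries and others overlap, so that rate is no yardstick for the 20 sets. Female wildtype 5 gave 8 of the 20. In it Cd74 had 10707 CPM, against 3272 to 5972 CPM in the other female libraries, Actb had 16204 CPM, against 8017 to 10509.8 CPM, Saa3 had 546 CPM, against 5.61 to 152 CPM, Serpina3g had 93.5 CPM, against 4.57 to 16.7 CPM, and Il12rb1 had 51.9 CPM, against 3.79 to 7.82 CPM. In the same library the interferon-stimulated genes list summed to 8262 TPM, against 3406 to 4373 TPM in the other female libraries, the MHC class II and costimulation list summed to 21169 TPM, against 8368 to 12974 TPM, and the complement list summed to 84865 TPM, against 56267 to 64631 TPM. All 8 values of female wildtype 5 were the highest of their set. The share was taken on values without logs, where a value many-fold below the rest is less readily flagged than one above. On the log2 scale female wildtype 5 was the extreme library for 18 of the 28 genes with an SD over 1, and the lowest for 13 of them.

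Female wildtype 2 was low for the lysosomal proteases Ctsd and Ctsb. In it Ctsd had 19241 CPM, against 29906 to 33293 CPM in the other female libraries, and Ctsb had 7355 CPM, against 12320.2 to 13399 CPM. The protease Ctss was not low there, at 5840 CPM against a median of 5788 CPM over the 12 libraries. In female wildtype 1 the antibody gene Igkc had 122 CPM, against 0.2203 to 12.8 CPM, and in female wildtype 3 the erythroid cells list summed to 6.43 TPM, against 0 to 1.67 TPM. Male wildtype 4 was high for the same proteases, since Ctsd had 39984 CPM, against 26086 to 31008 CPM in the other male libraries, and Ctsb had 16325 CPM, against 10804 to 12503 CPM. Male wildtype 3 was high for division and a chemokine: Top2a had 19.99 CPM, against 1.19 to 3.05 CPM, Cxcl13 had 105 CPM, against 3.83 to 17.04 CPM, and the proliferation list summed to 288 TPM, against 81.1 to 129 TPM. In male wildtype 6 Serpina3g had 41.4 CPM, against 6.43 to 19.2 CPM, and the Schwann cells list summed to 297 TPM, against 455 to 499.96 TPM. The total count of male wildtype 2 was 36768501, against 29201104 to 31057713 in the other male libraries.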

How the results depend on the processing

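Counts below are of genes past edgeR's adjusted p of 0.05, both directions together. With DESeq2 the title sets A and B gave 2597 genes, Top2a 347, Apoe 907 and Mbp 1; without a count filter the title sets A and B gave 1903, Apoe 170 and Mbp 1; without the sex term Top2a gave 295 and Apoe 369. Counts divided by 2 gave 380 for title sets A and B. Without female wildtype 2, 3 and 5 the title sets A and B gave 354, Irf7 0, Cd74 5, Top2a 52, P2ry12 2 and Apoe 2510, the anchor pairs 0, and the widely varying genes 6, with the filter on mean CPM applied anew to the remaining libraries. A term for replicates 1 to 3 against 4 to 6 gave Cd74 10, Top2a 395, P2ry12 3681 and Apoe 1; centring within those sets left 0 pairs. A term for the title number gave Irf7 0, Cd74 4 and P2ry12 1498. A term for the library GC slope, chosen after seeing the data, gave Irf7 5, Cd74 2, Top2a 1037, P2ry12 665 and Apoe 579. Genes holding 50% of the signal numbered 278 by CPM, and genes with an SD over 1 numbered 8 with an offset of 5 CPM, 120 from a mean of 1 CPM and 138 without a filter. Leaving out each library in turn gave 0 to 2921 genes for title sets A and B, 0 to 5189 for Irf7, 5 to 5998 for Cd74, 109 to 196 for Top2a, 1580 to 6375 for P2ry12, 0 to 4414 for Apoe, 0 for Fos and Mbp, 0 to 2 pairs, 80 to 90 genes holding 50% of TPM and 11 to 36 widely varying genes. The cause of these changes was not tested. Over single named genes, 1606 slopes kept their side of the threshold and 322 no longer passed, 79 title number changes kept theirs and 40 newly passed, 280 mean TPM values moved by less than 1 SD, and 0 of any kind changed sign. No paired analysis was possible because the replicate numbers only follow accession order. Small counts that are mostly even limit what the lowest genes can show.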

Other observations

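Chemokine ligands were expressed broadly, with 15 of 19 autosomal members at 1 TPM or more and a summed level of 1480.3 TPM in male wildtype 4, a median of 2113 TPM and 3674 TPM in female wildtype 5. Ccl6, Ccl12 and the scavenger receptor ligand Cxcl16 averaged 353 ± 113, 347 ± 158 and 343 ± 64.8 TPM (SD, n = 12). Ccl5, a ligand for T cells, had 23.4 CPM in female wildtype 2, a median of 67.8 CPM and 368 CPM in female wildtype 5, and the interferon-induced ligands Cxcl9 and Cxcl10 had 62.997, 99.7 and 358 CPM and 11.6, 24.3 and 68.8 CPM in the lowest, median and highest library. Female wildtype 5 was the highest library for Ccl5, Cxcl9 and Cxcl10, and the lowest for Ccl3, which had 34.6 CPM in female wildtype 5, a median of 88.1 CPM and 141 CPM in male wildtype 5.

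Immediate early genes summed to 1334 TPM in female wildtype 1, a median of 1641 TPM and 1739.8 TPM in female wildtype 3. Jund, Atf3 and Junb averaged 303 ± 55.6, 275 ± 50.03 and 274 ± 45.7 TPM (SD, n = 12), while Socs3, a feedback inhibitor of cytokine signalling, had 38.4 CPM in female wildtype 2, a median of 70.95 CPM and 443 CPM in female wildtype 5. Serping1, the C1 inhibitor of complement, had 10.9 CPM in female wildtype 2, a median of 31.5 CPM and 79.2 CPM in male wildtype 4. Lysosomal genes summed to 66611 TPM in female wildtype 5, a median of 75080.2 TPM and 89419 TPM in female wildtype 3, and Npc2, a cholesterol carrier of the lysosome, averaged 1226 ± 81.4 TPM. Cytosolic ribosomal proteins summed to 3194 TPM in female wildtype 1, a median of 4475 TPM and 6481 TPM in female wildtype 5. That sum leaves out processed copies, which stood far above parents such as Rps16 and Rpl10a, so it is uncertain.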
